A study of Mus musculus with 16 samples.

Results

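The 50 genes described here encode the machinery that condenses, attaches and separates chromosomes in mitosis: the Cdk1 kinase and its cyclins, the Polo and Aurora kinases, the spindle checkpoint, the kinetochore, mitotic kinesins and condensin, together with Foxm1, Hmgb2 and the proliferation marker Mki67. They were chosen by gene symbol from the table of 45777 genes, and all 50 were found in it. The rule uses no measured value, but the list was drawn up with earlier results of these data known. The samples were B16F10 melanoma tumors, grown from a mouse melanoma cell line injected under the skin of the flank in 6-week-old mice. The mice were of 2 kinds, lean C57BL/6J mice and leptin-deficient ob/ob mice, which become obese. In each host 4 tumors were collected before therapy and 4 after a course of etoposide (ETS), given as 5 daily intraperitoneal injections of 20 mg per kg, so the series holds 16 tumors. Etoposide traps topoisomerase II on cut DNA and leaves double-strand breaks. The 4 groups are called lean and obese tumors, before therapy or after ETS, and the labels name no vehicle for the tumors before therapy. No untreated tumors grown as long as the treated ones are described for the sequenced groups. A change after ETS therefore cannot be told apart from one with days of growth, tumor size or injection. Whole tumors were sequenced, each from 1 library, so host cells contributed RNA, and fewer dividing cells and less mitotic RNA per cell cannot be told apart in these values.

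Most of these genes are switched on only late in the cell cycle. In resting cells, and in cells arrested through p53 and its target p21, the DREAM complex (a repressor built on the MuvB core) sits on their promoters at the cell cycle genes homology region, a short element that usually reads TTTGAA, and in dividing cells the factors B-Myb and Foxm1 join the same core, while NF-Y binds CCAAT boxes close by. The products then act in order: Cdk1 with cyclin B starts mitosis, condensin compacts chromosomes, kinetochores bind spindle microtubules under checkpoint control, and Cdc20 and Ube2c, working with the anaphase-promoting complex, free separase to part the sisters. Mki67 protein coats mitotic chromosomes and is the marker pathologists use to count cycling melanoma cells.

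The promoters of 41 of the 50 genes were in the RefSeq promoter table of the GRCm38.p6 assembly, which spans 250 bases before and 50 after an annotated start. On either strand, TTTGAA was found in 30 of the 41 (73.2%), against 14.7% of the 11289 tested genes with a promoter and 20.2% of all 27025. It was found in 39.4% of 94 promoters of mitotic genes outside the list and in 14.8% of 27 promoters of DNA replication genes. Either TTTGAA or the variant TTTAAA was present in 80.5% of the 41 and in 22.9% of tested genes, and 2 or more CCAAT in 46.3% against 16.6%. TTTGAA together with CCAAT occurred in 25 of the 41 promoters (61.0%) and in 6.28% of those of tested genes. The 150 bases before the start are printed for 7 members whose levels or changes are given later, 5′ to 3′ on the strand of the gene, because they show how these letters are arranged. Capitals mark the element TTTGAA or its variant TTTAAA, and the box CCAAT. On the other strand these read TTCAAA for the first and ATTGG for the last.
Cdk1, chr10:69352913-69353062, minus strand: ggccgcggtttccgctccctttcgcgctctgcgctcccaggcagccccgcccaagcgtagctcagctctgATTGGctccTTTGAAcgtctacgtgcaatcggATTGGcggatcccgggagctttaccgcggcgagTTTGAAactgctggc
Cdc20, chr4:118437344-118437493, minus strand: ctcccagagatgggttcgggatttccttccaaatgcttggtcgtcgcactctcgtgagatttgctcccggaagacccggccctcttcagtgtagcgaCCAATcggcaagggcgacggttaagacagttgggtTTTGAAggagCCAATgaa
Kif11, chr19:37376232-37376381, plus strand: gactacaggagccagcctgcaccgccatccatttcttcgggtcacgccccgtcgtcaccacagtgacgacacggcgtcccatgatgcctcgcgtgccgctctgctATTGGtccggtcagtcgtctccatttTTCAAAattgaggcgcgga
Mki67, chr7:135716380-135716529, minus strand: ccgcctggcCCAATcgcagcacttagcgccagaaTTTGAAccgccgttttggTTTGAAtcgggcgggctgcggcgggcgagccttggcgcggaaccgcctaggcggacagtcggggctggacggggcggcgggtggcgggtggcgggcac
Ccnb1, chr13:100786487-100786636, minus strand: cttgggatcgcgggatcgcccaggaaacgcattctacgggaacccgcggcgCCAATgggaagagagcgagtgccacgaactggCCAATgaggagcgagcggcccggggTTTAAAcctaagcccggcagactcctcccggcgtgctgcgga
Ccnb2, chr9:70421555-70421704, minus strand: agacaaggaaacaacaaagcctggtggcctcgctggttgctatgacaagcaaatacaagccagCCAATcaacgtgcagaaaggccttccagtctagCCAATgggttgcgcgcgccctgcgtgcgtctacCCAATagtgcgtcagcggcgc
Pttg1, chr11:43425982-43426131, minus strand: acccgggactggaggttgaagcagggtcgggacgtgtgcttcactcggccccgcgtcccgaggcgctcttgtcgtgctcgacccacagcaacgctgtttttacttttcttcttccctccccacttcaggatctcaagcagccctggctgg

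In Cdk1 both elements occur as pairs, and in Cdc20 and Kif11 a TTTGAA lies within 20 bases of the start, on the other strand in Kif11. Ccnb1 carries TTTAAA in place of TTTGAA, and Ccnb2 has 3 CCAAT and no TTTGAA in this stretch. Pttg1, which encodes securin, holds none of these letters in the whole 300-base window, as do Knstrn, Mad2l1, Nuf2, Nusap1, Ncaph and Kif18a. A match is no evidence of binding, and the annotated Pttg1 and Mki67 genes also begin upstream of the starts used here, so promoters of longer transcripts were not searched.

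The deposited gene counts summed to between 47199949 and 61655287 reads per tumor. Levels are given as CPM, the usual count relative to library size, after TMM scaling, a procedure that aligns libraries on their typical gene. Differences between groups were tested with edgeR's quasi-likelihood test over the 16209 genes counted in every tumor, all 50 members among them. A gene was said to rise or fall where the Benjamini-Hochberg adjusted p was under 0.05. All 8 melanocyte markers were present in every group, and their sum moved with the groups. It was 19022 to 24147 CPM in lean tumors before therapy and 24229 to 27992 after ETS, and 11621 to 15867 and then 11264 to 26648 in obese tumors. Of the 8, 4 were lower in obese than in lean tumors before therapy, and 2 rose after ETS in lean and 3 in obese tumors. Host-cell markers also moved with the groups. In lean tumors the 9 macrophage markers summed to 413 to 1325 CPM before therapy and 50.1 to 422 after ETS. In obese tumors they summed to 40.7 to 257 before therapy and 358 to 1053 after. Fibroblast markers (6 genes) went the same ways, from 370 to 1046 CPM down to 61.8 to 398 in lean tumors and from 69.4 to 353 up to 392 to 3068 in obese tumors, and the 5 endothelial markers went from 96.3 to 125 CPM down to 65.1 to 91.8 and from 45.1 to 81.8 up to 80.6 to 216. The 3 erythroid genes reached 310 and 8162 CPM before therapy and at most 0.123 and 23.6 after ETS in lean and obese tumors. The 8 markers of T and NK cells summed to 18.4 to 35.8 CPM in lean tumors before therapy and 0.107 to 1.92 after ETS, and to at most 1.4 and 2.24 in obese tumors. The 5 adipocyte markers went from 21.8 to 44.1 CPM down to 1.35 to 8.27 in lean tumors, and were 3.47 to 66.4 before and 18.1 to 63.1 after ETS in obese tumors. Markers of keratinocytes reached at most 110.3 CPM and of skeletal muscle 306. Cd3e, Ncr1, Myh4, Krt5, Krt14 and Krt10 were at 0 in all obese tumors before therapy, and Krt5, Krt14, Lep and Alas2 in all lean tumors after ETS. The part of these cells in the values of the mitotic genes was not tested.

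The mitotic genes fell together after ETS in both hosts. Of the 50, 47 fell and 1 rose in lean tumors, with a median log2 fold change of -0.77. Obese tumors showed 48 that fell and none that rose, with a median of -0.92. Over all tested genes the corresponding medians were -0.01 and 0.01. The shares called were 22.8% lower and 21.0% higher in lean tumors and 19.0% lower and 21.2% higher in obese tumors. On the log2(TPM + 1) scale with limma the split over all genes was 7281 lower and 1351 higher in lean and 3333 lower and 2572 higher in obese tumors, and the members split 48 to 0 and 49 to 0. A fall with a log2 fold change of -1 or less and an adjusted p under 0.05 was seen for 13 members in lean and 21 in obese tumors, against 8.02% and 2.1% of all tested genes. All 4 tumors after ETS lay below all 4 before therapy for 48 members in lean and 49 in obese mice, where 20.3% and 17.7% of tested genes did so. The opposite order held for 1 member in lean and 0 in obese tumors, against 20.8% and 16.4% of tested genes.

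As a group the members separated the tumors by therapy, while the 2 hosts overlapped. The mean log2 CPM over the 50 genes was 6.22 ± 0.07 (SD, n = 4) in lean and 6.32 ± 0.11 in obese tumors before therapy, and 5.43 ± 0.15 and 5.31 ± 0.24 after ETS. Every tumor before therapy lay at 6.16 or higher and every tumor after ETS at 5.61 or lower. In TPM, the length-corrected transcript abundance the authors deposited, the 50 genes summed to 3353 ± 318 and 3324 ± 204 before therapy and to 1699 ± 233 and 1711 ± 293 after ETS. The obese tumors after ETS were spread most of the 4 groups, at 5.07, 5.50, 5.53 and 5.14, and for each of the 50 members the lowest of these 4 tumors was tumor 1 or tumor 4, 25 times each. Of the lean tumors after ETS, tumors 1 and 2 were lowest for 22 and 23 members and tumor 3 highest for 34.

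**Figure D1:**
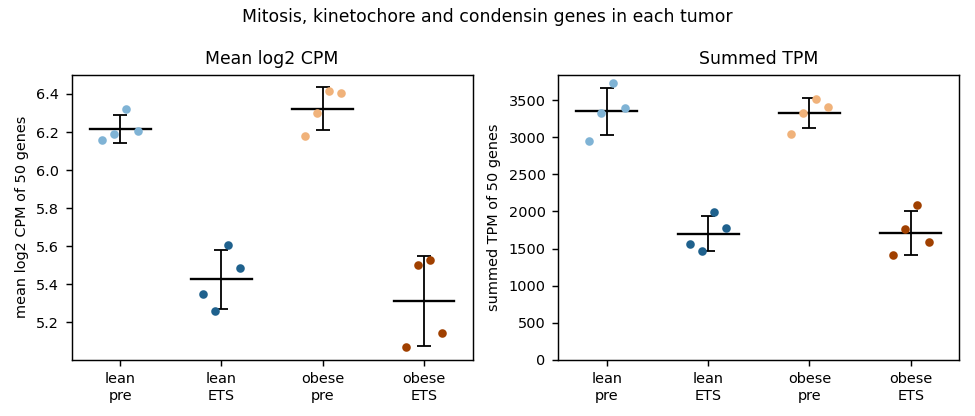
Mean log2 CPM (left) and summed TPM (right) of the 50 mitotic genes in each tumor; points are tumors, lines are group means and bars are SD (n = 4). Both measures separate tumors before therapy from tumors after ETS, with no overlap, and show the obese tumors after ETS at 5.07 to 5.53 on the left.

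By level per length, Bub3, Birc5 and Ube2c led the list in lean tumors before therapy, with mean TPM of 176 ± 5.63, 175 ± 3.18 and 174 ± 15.1 (SD, n = 4), and these 3 levels did not differ beyond their spread. The lowest was the kinesin Kif18a at 8.78 ± 1.41 TPM. Bub3, at the top of this order, was also a member that did not pass the test after ETS in either host.

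The entry-into-mitosis genes fell in both hosts, all 5 of 5. Cdk1, the kinase that drives cells into mitosis, was measured at 156, 154, 162 and 158 CPM in lean tumors before therapy and at 110.1, 125, 117 and 118 after ETS. In obese tumors it was at 163, 171, 228 and 198 before therapy and 102, 112, 108 and 86.3 after. The groups did not overlap in either host, and the log2 fold change was -0.42 ± 0.10 (SE, adjusted p = 0.00441, edgeR) in lean and -0.90 ± 0.10 (adjusted p = 3.52e-05, edgeR) in obese tumors. Cyclin A2 (Ccna2) changed by -0.89 and -1.20 on the log2 scale, and Cdc25c, the phosphatase that activates Cdk1, by -0.96 and -1.07. The changes of cyclin B1 (Ccnb1) were -0.61 and -0.92 in lean and obese tumors, and those of cyclin B2 (Ccnb2) were -0.48 and -0.79. Plk1, the Polo kinase of centrosome maturation and mitotic exit, and Aurka, the spindle pole Aurora kinase, fell in both hosts. Their changes were -0.72 and -0.68 for Plk1 and -0.51 and -0.54 for Aurka. The chromosomal passenger complex, which corrects faulty attachments and drives cytokinesis, fell in all 4 measured members. Its kinase Aurkb, its scaffold Incenp, survivin (Birc5) and borealin (Cdca8) had changes between -0.84 and -0.67 in lean and between -1.0 and -0.83 in obese tumors.

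The spindle checkpoint holds back anaphase until every kinetochore is attached, and 4 of its 5 members fell in each host. Ttk, the kinase that starts the signal, fell most of the 5, by 1.13 in lean and 1.29 in obese tumors. Bub1 changed by -0.80 and -1.0 and the BubR1 gene Bub1b by -0.50 and -0.62. Mad2l1, which encodes the Mad2 protein that captures Cdc20, gave 80.3, 77.2, 84.3 and 73.2 CPM in lean tumors before therapy and 46.8, 51.3, 50.4 and 52.8 after ETS. The obese tumors gave 65.4, 76.9, 92.9 and 75.8 CPM before therapy and 32.1, 43.2, 41.6 and 29.6 after. Its obese tumors after ETS were all below its lean tumors after ETS, and its changes were -0.65 ± 0.12 (SE, adjusted p = 0.000806, edgeR) in lean and -1.09 ± 0.12 (adjusted p = 3.47e-05, edgeR) in obese tumors. Bub3, which carries the Bub1 proteins to the kinetochore but also works outside mitosis, had 191, 163, 166 and 161 CPM in lean tumors before therapy and 218, 222, 171 and 184 after ETS. Its obese tumors had 177, 183, 197 and 188 CPM before therapy and 171, 175, 153 and 131 after. The lean groups of Bub3 overlapped and the obese groups did not, and neither change passed the test, with log2 fold changes of 0.22 (adjusted p = 0.0971, edgeR) and -0.24 (adjusted p = 0.0819, edgeR). With limma on log2(TPM + 1) the direction of Bub3 in lean tumors turned, to -0.15.

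Genes of anaphase control differed among themselves. Espl1 encodes separase, the protease that cuts cohesin, and fell by 1.27 in lean and 0.86 in obese tumors, whereas Cdc20, the checkpoint's target, fell by 0.25 (adjusted p = 0.0383, edgeR) and 0.64. Ube2c, the ubiquitin-conjugating enzyme of the anaphase-promoting complex, gave 74.5, 74.2, 77.1 and 74.0 CPM in lean tumors before therapy and 47.6, 59.5, 65.8 and 71.1 after ETS. Obese tumors gave 83.8, 89.9, 112 and 117 before therapy and 65.1, 59.3, 60.8 and 58.3 after. Groups did not overlap in either host, yet the lean change of -0.30 missed the threshold (adjusted p = 0.0537, edgeR), while the obese change was -0.73 (adjusted p = 0.000374, edgeR). Pttg1 encodes securin, which holds separase inactive until anaphase, and rose in lean tumors. Its CPM were 19.6, 18.1, 16.7 and 16.5 in lean tumors before therapy and 22.3, 31.5, 22.6 and 27.1 after ETS. They were 22.1, 19.6, 20.5 and 22.1 in obese tumors before therapy and 22.9, 21.5, 20.1 and 19.9 after. All 4 lean tumors after ETS lay above all 4 before therapy, while the obese groups overlapped, and the log2 fold change was 0.55 ± 0.11 (SE, adjusted p = 0.00134, edgeR) in lean and 0.00 ± 0.11 (adjusted p = 0.991, edgeR) in obese tumors. The lean change of Pttg1 did not pass with limma on log2(TPM + 1), at 0.22 (adjusted p = 0.0578).

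**Figure D2:**
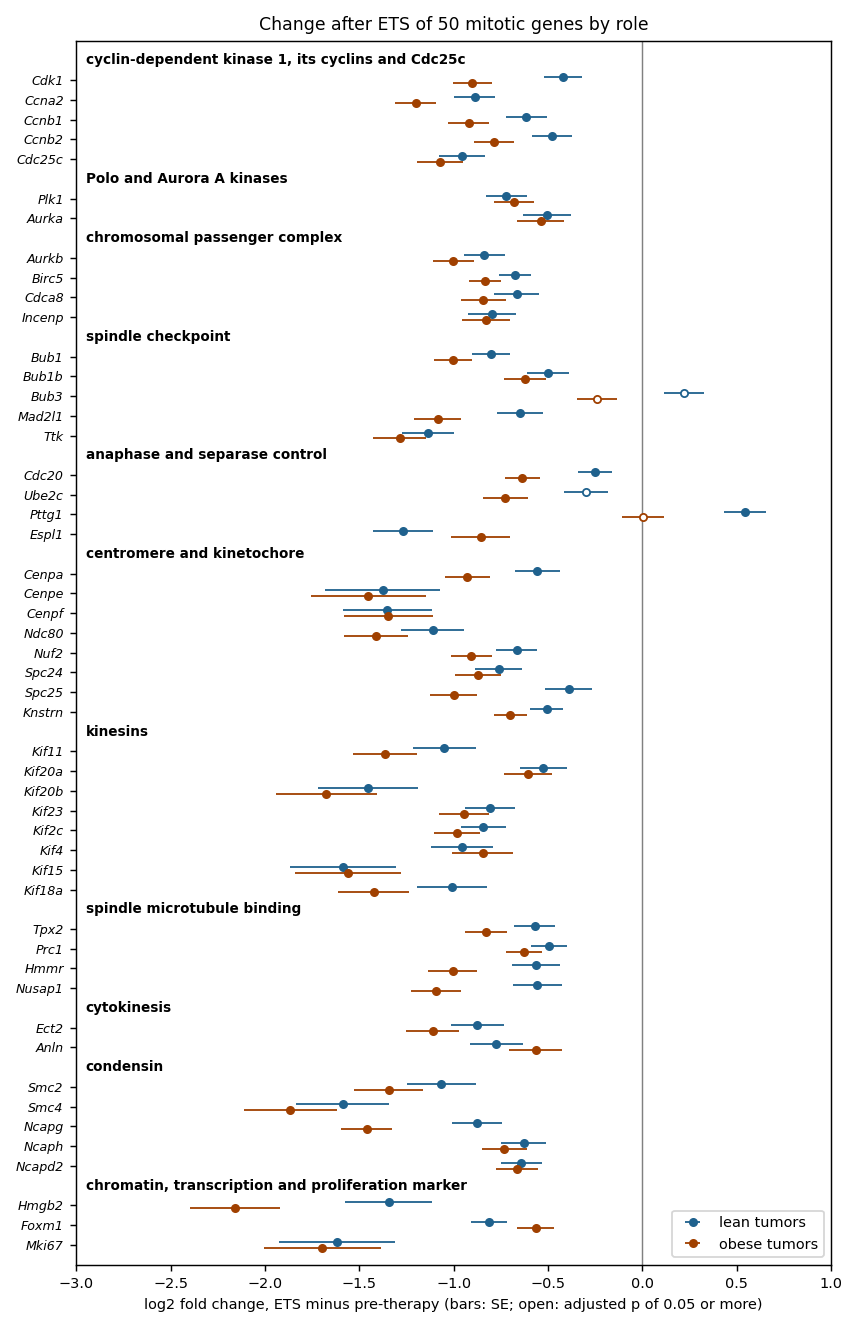
Log2 fold change after ETS (horizontal axis, ETS minus pre-therapy) of each of the 50 genes, ordered by role, in lean (blue) and obese (brown) tumors; bars are SE and open points have an adjusted p of 0.05 or more. All points lie left of 0 except Bub3 and Pttg1 in lean tumors at 0.22 and 0.55 and Pttg1 in obese tumors at 0.00, and the points furthest left are Hmgb2 and Smc4 in obese tumors at -2.16 and -1.87.

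Centromere and kinetochore genes fell in both hosts, 8 of 8, with medians of -0.71 and -0.96 in lean and obese tumors. The largest falls in lean tumors were those of the big fibrous-corona proteins Cenpe, a kinesin that carries chromosomes to the plate, and Cenpf, with changes of -1.38 and -1.35. In obese tumors these genes changed by -1.45 and -1.35. Among the 4 subunits of the Ndc80 complex, which grips the microtubule end, Ndc80 fell by 1.11 and 1.41, Nuf2 by 0.67 and 0.91, and Spc24 by 0.76 and 0.87. The fourth subunit, Spc25, went from 39.5, 35.8, 37.0 and 31.6 CPM to 27.1, 28.9, 26.7 and 27.2 in lean tumors. In obese tumors it went from 36.1, 38.2, 43.2 and 42.9 to 20.8, 23.7, 21.3 and 14.4. After ETS its 4 obese values lay below its 4 lean values, and its changes were -0.39 ± 0.12 (SE, adjusted p = 0.0195, edgeR) and -1.0 ± 0.13 (adjusted p = 5.92e-05, edgeR). Cenpa, the histone variant that marks the centromere, changed by -0.56 and -0.93, and Knstrn, a kinetochore and spindle adaptor, by -0.51 and -0.70.

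All 8 kinesins, motors that slide or shorten spindle microtubules, fell in both hosts, with medians of -0.98 and -1.17. Kif15, which helps keep the spindle bipolar, had 30.8, 41.5, 52.3 and 39.1 CPM in lean tumors before therapy and 12.2, 8.05, 17.6 and 16.6 after ETS. In obese tumors the values were 33.6, 40.4, 42.6 and 41.4 before therapy and 6.69, 13.6, 19.7 and 13.5 after. That is about a 3-fold lower level in each host, with log2 fold changes of -1.59 ± 0.28 (SE, adjusted p = 0.000496, edgeR) and -1.56 ± 0.28 (adjusted p = 0.000683, edgeR). Kif20b, Kif11 (the main spindle-separating motor) and Kif18a fell by 1.45, 1.05 and 1.01 in lean and by 1.67, 1.36 and 1.42 in obese tumors, and Kif20a, a cytokinesis motor, had the smallest change of the 8, at -0.52 and -0.61. The 4 spindle microtubule-binding proteins changed by between -0.57 and -0.49 in lean and between -1.09 and -0.63 in obese tumors, and of these Tpx2 activates Aurka, Prc1 bundles the midzone, and Hmmr and Nusap1 bind spindle fibers. The cytokinesis genes Ect2 and Anln, which set up and anchor the contractile ring, fell by 0.87 and 0.77 in lean and by 1.11 and 0.56 in obese tumors.

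Condensin, the ring complex that compacts mitotic chromosomes, fell in each of its 5 measured subunits, and unequally. Smc4, a core ATPase, went from 168, 171, 175 and 135 CPM to 48.5, 28.5, 74.8 and 63.9 in lean tumors. In obese tumors it went from 164, 167, 206 and 201 to 31.5, 54.2, 57.6 and 59.3 CPM. Its groups were far apart in both hosts, and the log2 fold changes were -1.59 ± 0.24 (SE, adjusted p = 0.000178, edgeR) and -1.87 ± 0.25 (adjusted p = 8.31e-05, edgeR). Smc2, the partner ATPase, changed by -1.06 and -1.34, whereas the condensin I subunits Ncaph and Ncapd2 changed by -0.63 and -0.64 in lean and -0.73 and -0.67 in obese tumors. Ncapg, also of condensin I, was measured at 68.2, 64.9, 76.7 and 63.4 CPM before therapy and 34.3, 32.8, 42.8 and 39.1 after ETS in lean tumors. The obese tumors had 67.9, 69.6, 92.3 and 81.7 before therapy and 23.3, 28.5, 35.1 and 26.2 after. Its change was -0.88 ± 0.13 in lean and -1.46 ± 0.13 in obese tumors (SE; adjusted p = 0.000159 and 8.12e-06, edgeR). Reads of Smc4 could not be told from those of 2 microRNA genes inside it, and those of Ncapg from the overlapping gene Lcorl, since the use of strand in counting is not given in the sources used here. In all, 20 members overlap another annotated gene, Kif15, Nusap1, Foxm1, Cdc20 and Ccna2 among them.

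Hmgb2, a chromatin protein that is most abundant in dividing cells, showed the largest fall of any member in obese tumors, and Mki67 that in lean tumors. It had 149, 188, 176 and 157 CPM in lean tumors before therapy and 51.1, 46.9, 80.7 and 85.5 after ETS. Its obese tumors had 186, 197, 288 and 259.9 before therapy and 32.2, 52.5, 68.0 and 55.8 after. Neither host showed overlap, and the log2 fold change was -1.34 ± 0.23 (SE, adjusted p = 0.0004, edgeR) in lean and -2.16 ± 0.24 (adjusted p = 2.67e-05, edgeR) in obese tumors. Mki67 gave 261, 335, 475 and 341 CPM in lean tumors before therapy and 117, 58.7, 149 and 136 after ETS. In obese tumors it gave 310.0, 398, 316 and 331 before therapy and 47.9, 132, 137 and 102 after. The highest tumor after ETS was well under the lowest before therapy in each host, and the changes were -1.62 ± 0.31 (SE, adjusted p = 0.000846, edgeR) and -1.70 ± 0.31 (adjusted p = 0.000765, edgeR). Foxm1, the transcription factor of this program, had 148, 162, 164 and 174 CPM in lean tumors before therapy and 81.1, 96.8, 93.6 and 97.4 after ETS. Obese tumors had 113, 122, 133 and 127 before therapy and 78.5, 94.8, 90.3 and 70.5 after. The lean change of Foxm1, -0.81 ± 0.10 (SE, adjusted p = 2.47e-05, edgeR), stood against -0.56 ± 0.10 (adjusted p = 0.00049, edgeR) in obese tumors, whose level before therapy was lower.

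**Figure D3:**
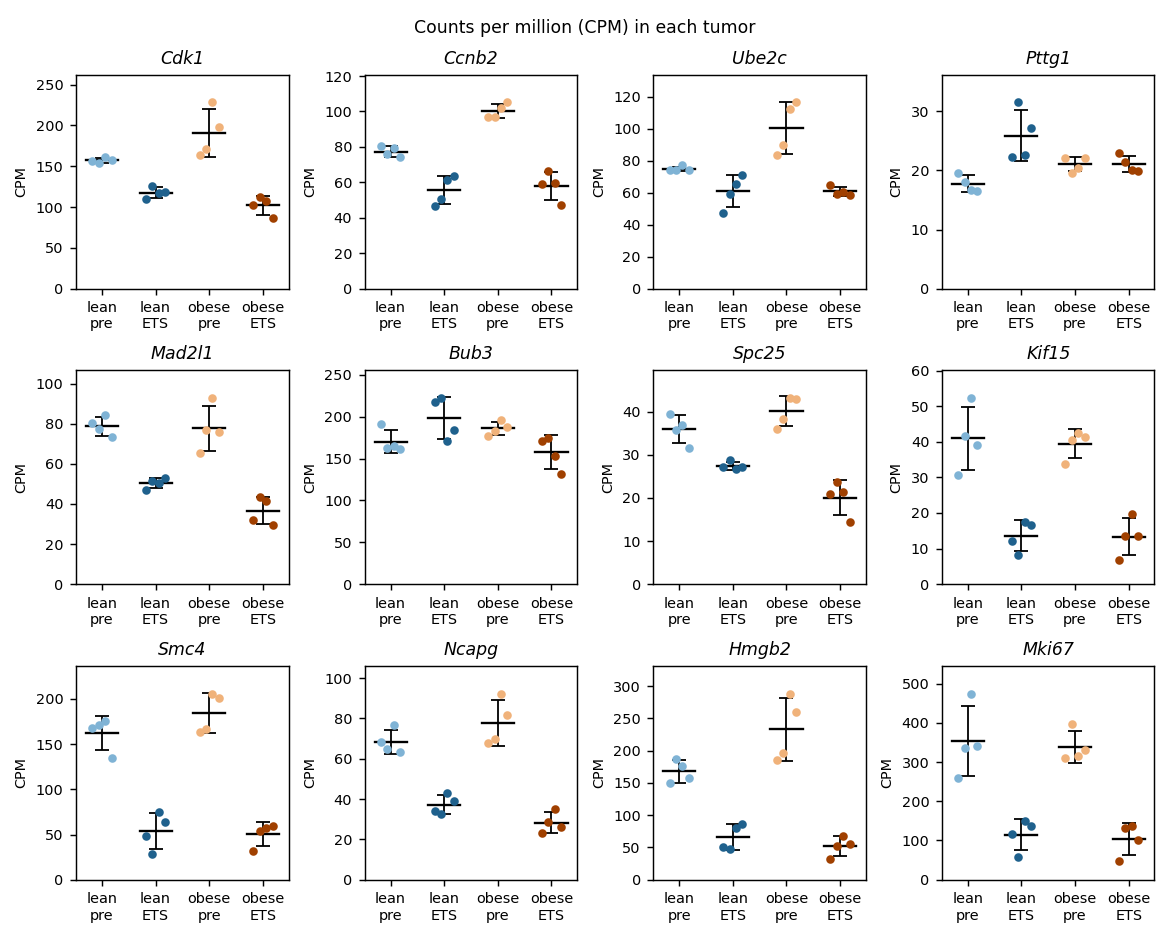
CPM (vertical axes, from 0) of 12 of the 50 genes in each tumor; points are tumors, lines are group means and bars are SD (n = 4). Cdk1, Ccnb2, Ube2c, Mad2l1, Spc25, Kif15, Smc4, Ncapg, Hmgb2 and Mki67 are lower after ETS without overlap in both hosts, while Pttg1 is higher in lean tumors and Bub3 overlaps there.

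Other genes of the same processes, 111 mitotic genes outside the list, fell too. In lean tumors 82 fell and 3 rose, with a median of -0.60, and in obese tumors 88 fell and 1 rose, with a median of -0.68. Over all tested genes 22.8% fell and 21.0% rose in lean tumors, and 19.0% fell and 21.2% rose in obese tumors. The largest falls were those of the kinetochore scaffold Knl1, with changes of -1.48 and -1.47, of the Aurka activator Bora with -1.38 in lean tumors, and of the kinetochore gene Ska1 with -1.52 in obese tumors. Gtse1, a p53-regulating spindle protein, rose by 1.0 ± 0.10 in lean and 0.70 ± 0.10 in obese tumors (SE; adjusted p = 8.71e-06 and 0.000171, edgeR), and Psrc1, a spindle protein, changed by 1.34 (adjusted p = 9.16e-06, edgeR) and 0.22 (adjusted p = 0.23, edgeR). Of 36 DNA replication genes, 31 and 34 fell and 0 rose, with medians of -0.65 and -0.74. The largest falls were those of Gins1, at -1.19 and -1.12, Pole at -1.01 in lean tumors and Rfc4 at -1.15 in obese tumors. The p53 target Cdkn1a, which encodes p21, had 146, 108, 58.8 and 135 CPM in lean tumors before therapy and 1232, 1472, 1073 and 1078 after ETS. Obese tumors had 561, 467, 467 and 584 before therapy and 1350, 1261, 1178 and 1217 after. Cdkn1a rose by 3.44 ± 0.23 and 1.27 ± 0.21 on the log2 scale (SE, adjusted p = 3.44e-07 and 0.000376, edgeR), from a level that was already higher in obese tumors. Mdm2, also a p53 target, rose by 0.80 and 0.83.

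Whether the mitotic genes changed after ETS to a different extent in the 2 hosts was asked by testing the obese change minus the lean change. The estimate was negative for 43 of the 50 genes, with a median of -0.20 against -0.05 over all tested genes, which turned to 0.09 against 0.16 with limma on log2(TPM + 1). There 228 of all genes were called in the direction of a more negative change in obese tumors and 2239 in the other. The members were measured in the same tumors and tended to move together, so the 43 are not independent results. The share of all tested genes with a negative estimate was not counted. The test was passed by 5 of the 50, all with the more negative change in obese tumors, where 6.35% of tested genes passed in this direction and 10.1% in the other. They were Spc25 at -0.61 ± 0.18 (SE, adjusted p = 0.0272, edgeR), Ncapg at -0.59 ± 0.19 (adjusted p = 0.0434, edgeR) and Pttg1 at -0.54 ± 0.16 (adjusted p = 0.0272, edgeR), together with Cdk1 at -0.48 ± 0.14 (adjusted p = 0.0328, edgeR) and Bub3 at -0.46 ± 0.15 (adjusted p = 0.045, edgeR). Hmgb2 had the largest estimate, -0.82 ± 0.32, and did not pass (adjusted p = 0.097, edgeR), while Mki67 and Kif15 differed by -0.08 ± 0.43 and 0.03 ± 0.39. Espl1, Foxm1, Anln, Kif4, Plk1, Kif15 and Cenpf had estimates above 0, of 0.41 at most, and none passed. With limma on log2(TPM + 1) no member passed and 2 had an unadjusted p under 0.05. Without lean tumor 4 before therapy or obese tumor 4 before therapy, no member passed, with 12 and 10 at an unadjusted p under 0.05. Outside the list 7 of the 111 other mitotic genes passed with a negative and 1 with a positive difference, and 1 of the 36 replication genes with a negative one. Psrc1 differed by -1.12 ± 0.20 (SE, adjusted p = 0.00126, edgeR), the cohesin gene Stag2 by -0.64, the clamp loader gene Rfc4 by -0.57 and Iqgap3, a scaffold of cytokinesis and cell shape, by 0.73. The p53 target Cdkn1a differed by -2.17 ± 0.29 (SE, adjusted p = 0.000185, edgeR) and Mdm2 by 0.02.

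Before therapy 4 of the 50 members passed the test between hosts, 3 higher and 1 lower in obese tumors, where 13.5% and 12.9% of tested genes were called. The median was 0.13 against 0.02 over all genes, and -0.0042 against -0.08 with limma on log2(TPM + 1), where 1127 genes were called higher and 2765 lower. Ccnb2 gave 80.2, 75.9, 79.3 and 74.1 CPM in lean and 97.0, 96.7, 102 and 105 in obese tumors before therapy (log2 fold change 0.37 ± 0.11, SE; adjusted p = 0.0171, edgeR), with 46.8, 50.8, 61.1 and 63.6 and then 58.8, 66.4, 59.4 and 47.4 after ETS. Every obese tumor exceeded every lean tumor before therapy, and the groups overlapped after ETS. Nusap1 had 45.2, 46.0, 51.8 and 45.5 CPM in lean and 57.0, 58.1, 74.4 and 66.8 in obese tumors before therapy, and 27.3, 27.7, 38.0 and 35.1 and then 26.3, 33.6, 34.2 and 26.1 after ETS. Its difference before therapy was 0.44 ± 0.13 (SE, adjusted p = 0.0193, edgeR), that of Ube2c 0.43 ± 0.12 (adjusted p = 0.0157, edgeR) and that of Foxm1 -0.39 ± 0.10 (adjusted p = 0.0077, edgeR), each without overlap between the hosts. As these members were picked by the test on the same values, the lack of overlap is no separate evidence. Ccnb2, Nusap1 and Ube2c did not pass with limma on log2(TPM + 1), at 0.24, 0.29 and 0.28. Without obese tumor 4 before therapy 1 member passed in place of 4, and without obese tumor 3 before therapy 2. Of the 36 replication genes 9 were lower and 0 higher in obese tumors before therapy, and of the 111 other mitotic genes 5 were lower and 7 higher. After ETS the counts were 3 lower and 0 higher of the 36, and 2 lower and 0 higher of the 111. Of all tested genes 2.3% were called lower and 3.28% higher in obese tumors after ETS.

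After ETS 2 of the 50 members differed between hosts, both lower in obese tumors, where 2.3% of tested genes were called lower and 3.28% higher, and the median was -0.10. With limma on log2(TPM + 1) the median was 0.04, and 128 genes were called lower and 663 higher. Mad2l1 differed by -0.46 ± 0.12 (SE, adjusted p = 0.0429, edgeR) and Spc25 by -0.45 ± 0.12 (adjusted p = 0.0469, edgeR), and in both the 4 obese tumors lay below the 4 lean tumors. These genes were named because they passed the test on the same values, so this order is no separate evidence. Both calls were lost in 10 of the 16 fits that left out a tumor, although 8 members had an unadjusted p under 0.05 with all 16 tumors. Without obese tumor 4 after ETS, Spc25 differed by -0.32 and Mad2l1 by -0.36.

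The members with longer transcripts tended to have the larger falls. Each gene was given the length of its longest protein-coding transcript in GENCODE M21. Across the 50 members the Spearman correlation of length with the change after ETS was -0.48 in lean and -0.30 in obese tumors; these are correlations across genes, which are not independent. Across 12911 tested genes with a length, the same correlation was -0.23 in lean and -0.05 in obese tumors. In lean tumors the median change of all genes went from 0.27 in the shortest to -0.31 in the longest decile. The 4 members in the longest decile had a median of -1.36 and the 7 in decile 2, the shortest that held any, one of -0.48. Set against the median of genes in the same decile of length, 48 members in lean and all 50 in obese tumors were lower, with medians of -0.75 and -0.98, and Bub3 and Pttg1 were the exceptions in lean tumors. The difference between hosts was also lower than that of genes of like length for 43 members, with a median of -0.19. RNA integrity was not given in the sources used here, and its part was not tested.

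**Figure D4:**
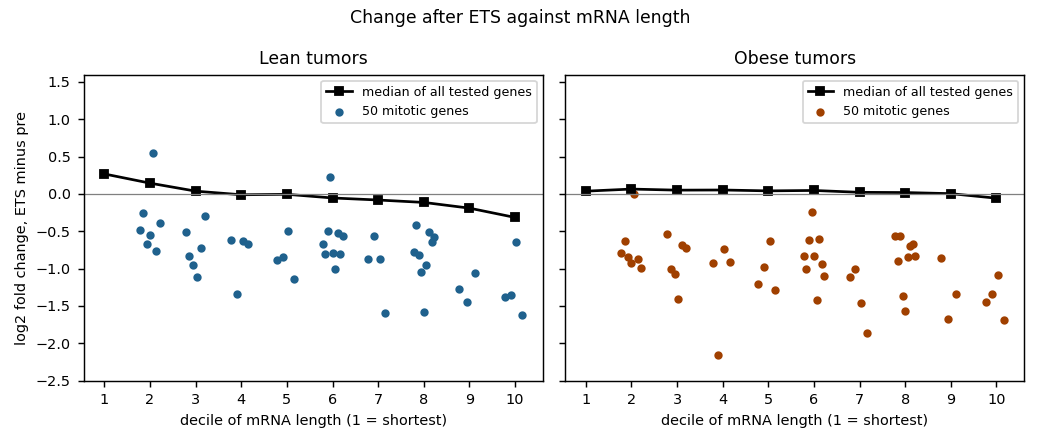
Log2 fold change after ETS (vertical axis) against the decile of transcript length (horizontal axis, 1 the shortest) in lean (left) and obese (right) tumors; colored points are the 50 mitotic genes and black squares the median of all tested genes in that decile. The black line slopes from 0.27 to -0.31 in lean tumors and is nearly level in obese tumors, and nearly all mitotic genes lie under it, with Bub3 and Pttg1 above it in lean tumors.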

How the data were processed

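RNA of 16 whole tumors was sequenced from stranded mRNA libraries. The submitters' processing notes name bcl2fastq 2.20.0, Trimmomatic, HISAT2 2.1.0, StringTie 2.1.3b and the mm10 build. The authors deposited whole-number read counts per gene without normalization, and FPKM and TPM values for the same 45777 genes; the deposited FPKM values were not used and the deposited TPM values served for levels per length and for an alternative fit. Following the authors' filter, 29568 genes lacking reads in at least 1 tumor were left out and 16209 were tested.

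Counts were scaled by TMM and fitted with edgeR 4.0.16 (R 4.3.3), quasi-likelihood test, over all 4 groups of 4 tumors, with 5 contrasts and Benjamini-Hochberg adjustment over all tested genes. Two-sided p-values set each difference between groups against the spread between tumors within groups. The labels describe the tumors as separate samples and do not tie them to single animals. Mean log2 CPM used a prior count of 2. Alternatives were DESeq2 size factors, DESeq2 1.42.0, edgeR's exact test on counts plus 1, no filter, filterByExpr, log2(TPM + 1) with limma 3.58.1, a fit of the compared groups alone, a replicate block, and leaving out each tumor. The fit was also run on simulated counts in which few genes changed, unlike in these data, and no result here rests on it. Age and dose come from the study's methods.

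The members and gene lists were chosen with earlier results of these data known. Every member could be named; values per tumor are given for the 3 largest called changes in each direction of each comparison and for Mki67, Cdk1 and Foxm1, and for the other lists the 2 largest in each direction are named. Bub3 was added after its values were seen, because neither of its changes after ETS was called. The promoters printed were chosen after their letters and values were seen. Same-numbered tumors of different groups had correlations of their deviations between -0.11 and 0.45 over 24 pairs, with a median of 0.07. Tumors with different numbers had correlations between -0.58 and 0.51 over 72 pairs, with a median of -0.04. The labels do not say what the replicate numbers stand for, and the main fit used no pairing.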

Additional observations from a re-analysis of the deposited data

Results flagged for a closer look

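In a few groups of 4 tumors, a single tumor stood apart in log2 CPM, with a gap to the next tumor that exceeded Dixon's critical share of the group's range. Such a gap arose in 5 of 204 groups tested, where chance gives about 1 in 20. Ccna2 was at 6.94 in lean tumor 3 after ETS, against 6.68 to 6.72 in the others, and Bub3 was at 7.58 in lean tumor 1 before therapy, against 7.33 to 7.37. In lean tumor 3 before therapy Ube2c was at 6.27, against 6.21 to 6.22, and Nusap1 at 5.70, against 5.50 to 5.53. Smc4 was at 4.98 in obese tumor 1 after ETS, against 5.76 to 5.89.

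The change after ETS differed between hosts for 5 members, by the test of the difference itself in edgeR. Each had the more negative change in obese tumors. Over all tested genes 6.35% passed in this direction and 10.1% in the other, so such calls were not particular to the mitotic genes. The obese minus lean differences were -0.61 for Spc25, -0.59 for Ncapg, -0.54 for Pttg1, -0.48 for Cdk1 and -0.46 for Bub3 on the log2 scale. In Pttg1 the lean change was 0.55 and the obese change 0.00, and in Bub3 they were 0.22 and -0.24; in the other 3 genes both changes were negative. None of the 5 passed with limma on log2(TPM + 1).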

How the results depend on the processing

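The members called after ETS numbered 48 in each host, and stayed between 47 and 49 in lean and between 48 and 49 in obese tumors under every alternative run. The 5 members that differed in their change between hosts became 0 with limma on log2(TPM + 1) (2 at an unadjusted p under 0.05), 9 with the replicate block, and between 0 and 6 when single tumors were left out; the count was 3 or fewer without lean tumors 2, 3 or 4 before therapy, lean tumors 2, 3 or 4 after ETS, obese tumors 1, 3 or 4 before therapy, or obese tumors 1 or 4 after ETS. The 4 members that differed before therapy (3 higher and 1 lower in obese tumors) became 0 higher and 2 lower with limma on log2(TPM + 1), and numbered between 1 and 6 when single tumors were left out, with 1 without obese tumor 4 and 2 without obese tumor 3 before therapy. The 2 that differed after ETS became 0 without the low-count filter (9 at an unadjusted p under 0.05), 0 with limma on log2(TPM + 1) (2), 0 when the fit held the compared groups alone (5), 1 with filterByExpr, 4 with the replicate block, and between 0 and 4 when single tumors were left out: 0 or 1 without any tumor other than lean tumor 1 before therapy and obese tumors 2 and 3 after ETS, and 4 without obese tumor 2. The labels do not say whether the replicate numbers pair the tumors. The replicate block changed the counts of the ETS change within each host, and of the difference before therapy, by no more than 1.5 times. Changes close to 0 turned their direction for a pair of genes: Bub3 in lean tumors to -0.15 with limma on log2(TPM + 1), and Pttg1 in obese tumors to -0.016 without the low-count filter, -0.017 with filterByExpr, -0.036 with limma on log2(TPM + 1), -0.000328 with the replicate block, and between -0.031 and 0.033 when single tumors were left out. With limma on log2(TPM + 1) the median change over all genes moved to -0.28 (lean) and -0.05 (obese), and that of the members to -1.12 and -0.99. Between hosts after ETS these medians moved to 0.10 and 0.04, and for the difference in the ETS change to 0.16 and 0.09. Over 29 log2 fold changes followed through the alternatives, 569 values kept direction and call, 98 lost the call, 10 gained it and 9 turned. The causes were not tested. The exact test and the fit of only the groups compared give no separate value for the difference between hosts. At 47199949 reads or more per tumor, counting error is small for all members, and the number of tumors limits the precision.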
